A study of Homo sapiens with 9 samples.

Results

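The comparison set the cells of both CRISPRa-activated clones, as 1 condition, against the control cells of the same line. Members were the genes for which all 6 activated arrays lay on 1 side of all 3 control arrays, and there were 1977 such genes among the 23931 measured. All cells were H2009, an established line of human lung adenocarcinoma, and every group, the control included, carried the CRISPRa machinery: a dead Cas9 fused to the VPR activator (dCas9-VPR). In the activated groups a single guide RNA, sgRNA-A or sgRNA-B, directed it to raise the microRNAs of 14q32. Control cells had received the guide vector without a guide. Each guide is represented by 1 clone, so the guide and the clone cannot be told apart. The pooled contrast sets the mean of both clone means against control, and a change in 1 clone alone can pass it. The cells were untreated and grew in medium with serum and blasticidin, the selection antibiotic. Each group had 3 arrays, described as biological replicates of a clone. Both activated clones are compared with the same control group. A trait of those control cells would therefore appear in both clones and cannot be told apart from activation. The submitters measured a rise of 14q32 microRNAs by RT-qPCR before they hybridised the arrays.

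The imprinted DLK1-DIO3 region of 14q32 holds a large cluster of microRNA genes that are transcribed from the maternal chromosome together with long non-coding RNAs. A microRNA guides an Argonaute protein to messenger RNAs with a complementary seed match, most often in the 3′ untranslated region, and lowers their translation and stability. The effect of a microRNA on a given target is usually modest, and transcripts downstream of its targets can move either way.

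The values are log2 array levels, on which a difference of 1 is a 2-fold change. A gene is said to have risen or fallen when its adjusted p was below 0.05 in limma, with the Benjamini-Hochberg adjustment over all 23931 genes. Olfactory receptor genes, known mainly from the sensory neurons of the nose, give a scale for silence: the 95th percentile of 352 of them was 4.45 log2 units, called the silent level here. Epithelial markers fitted the labelled cell type: 8 of 8 lay above it, KRT19 being highest at 12.97. Of 10 alveolar lung markers 6 lay above it, among them the lineage factor NKX2-1 at 9.45. Their median was 4.71, and SFTPA1 was lowest at 3.89. Of 10 striated muscle markers 6 lay above the silent level, as did 4 of 7 ciliated airway markers. A level above silence alone thus does not name a cell type. Defining markers of leukocytes were silent, with PTPRC (CD45) at 3.61, as were PECAM1 of endothelium at 3.85 and most fibroblast markers, of which 2 of 9 lay above the silent level. Pairs of arrays correlated across genes at 0.997 to 0.9982 in the same group, and an activated with a control array at 0.9958 to 0.9978.

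In all, 855 genes changed, 424 of them higher and 431 lower in activated cells. That is 3.57% of the genes tested, 1.77% in the upward and 1.8% in the downward direction. All 6 activated arrays lay above the controls for 976 genes (4.08%) and below them for 1001 (4.18%). The overlap between the criteria was large in 1 direction: 795 of the 855 changed genes had separate arrays, whereas 1182 of the 1977 genes with separate arrays did not pass the test. Changes were small. The median size among changed genes was 0.28 log2 units, against 0.05 over all genes, and among changed genes with separate arrays 21 rose and 35 fell by at least 1.5-fold. At least 2-fold changes were seen only downward, in 3 genes. In bulk RNA a lower level in every cell and fewer cells with a high level cannot be told apart.

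**Figure D1:**
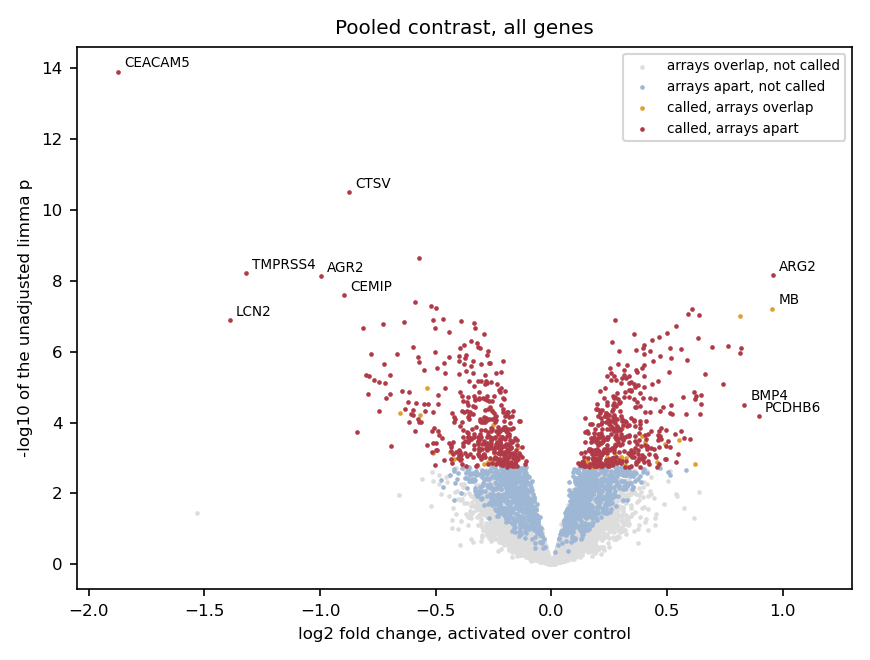
Each point is 1 of 23931 genes, with the log2 fold change of activated over control cells on the x axis and -log10 of limma's unadjusted p on the y axis. Red points are the 795 changed genes whose arrays are separate, orange points the 60 changed genes whose arrays overlap, and blue points the 1182 genes with separate arrays that did not pass the test; CEACAM5 stands alone at the upper left.

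Changed genes were mostly well expressed. Their median level was 8.92 log2 units, against 4.89 for all genes. Of genes at or below the silent level 0.325% changed, and the share grew to 4.91% between 6 and 8, 9.42% between 8 and 10 and 10.6% above 10 log2 units. Calls rested most on control replicates 1 and 3: 405 genes changed without control replicate 1 and 496 without control replicate 3, against 643 to 767 when any other array was left out. A core of 314 genes, 147 higher and 167 lower, passed the test in each of the 9 fits that left out 1 array, and 307 of these had separate arrays. Genes outside this core are marked as such where they are named below, apart from the runs of neighbouring genes at the end.

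At 14q32 itself, none of 10 measured host and flanking genes changed (0 higher and 1 lower at an unadjusted p below 0.05, limma), and 8 lay at or below the silent level. WDR25, which flanks the imprinted region, had the largest difference (-0.23, SE 0.09; adjusted p = 0.263), and MEG3, the long non-coding RNA transcribed with the microRNAs, lay at 3.60 with a difference of -0.01 (SE 0.03; adjusted p = 0.928). Of 29 genes that make microRNAs or carry out silencing, 1 changed: DICER1, the nuclease that cuts microRNA precursors, read 8.90, 8.95 and 9.06 in control and 8.67 to 8.81 in activated arrays (-0.24, SE 0.05; adjusted p = 0.015), a call lost without control replicate 3 (0.0859).

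The 3 falls of at least 2-fold were those of CEACAM5, LCN2 and TMPRSS4. CEACAM5, the carcinoembryonic antigen, a cell-surface adhesion glycoprotein of gut and lung tumours, read 11.07, 11.06 and 11.01 log2 units in control arrays, 9.02, 8.93 and 9.11 with sgRNA-A and 9.45, 9.25 and 9.28 with sgRNA-B. Every activated array was at least 1.56 log2 units below every control array. Its level fell by 1.88 log2 units (SE 0.05; adjusted p = 3.1e-10, limma), or 3.67-fold. LCN2, lipocalin 2, a secreted protein that binds bacterial iron carriers, read 8.09, 8.17 and 7.71 in control, 6.77, 6.09 and 6.24 with sgRNA-A and 6.73, 6.95 and 6.82 with sgRNA-B, a 2.62-fold fall (log2 fold change -1.39, SE 0.14; adjusted p = 0.000166). TMPRSS4, a membrane-anchored serine protease, stood at 7.93, 7.83 and 7.77 in control, at 6.28, 6.20 and 6.19 with sgRNA-A and at 7.08, 6.83 and 6.54 with sgRNA-B (-1.32, SE 0.10; adjusted p = 3.01e-05). In all 3 genes the arrays were separate, and the sgRNA-A mean was the lower of the clone means.

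AGR2, a disulfide isomerase of the endoplasmic reticulum needed for mucin folding, read 8.70, 8.88 and 8.58 in control, 7.69, 7.89 and 7.94 with sgRNA-A and 7.67, 7.51 and 7.64 with sgRNA-B (-0.996, SE 0.08; adjusted p = 3.01e-05, limma). CEMIP, which binds and depolymerises hyaluronan, had controls within 0.05 log2 units of each other, at 7.48, 7.51 and 7.53, and activated arrays between 6.51 and 6.79 (-0.90, SE 0.08; adjusted p = 8.84e-05). CTSV, a lysosomal cysteine protease, ranged from 10.30 to 10.38 in control and from 9.34 to 9.59 in activated arrays (-0.88, SE 0.04; adjusted p = 3.77e-07). PRODH, the mitochondrial enzyme that begins proline breakdown, read 7.28, 7.46 and 7.37 in control and 6.45 to 6.79 in activated cells (-0.82, SE 0.08; adjusted p = 0.000198). In the test of the clones given further on, none of these 4 genes passed; sgRNA-A minus sgRNA-B was 0.23 for AGR2 (adjusted p = 0.402), whose clones had separate arrays, and -0.17 for CTSV (0.286).

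The next falls, from -0.84 to -0.74, were those of AQP3 (a water and glycerol channel), SLC6A14 (a transporter of neutral and cationic amino acids), TMEM40, CACNG4 (of the calcium channel gamma subunit family), ST6GALNAC2 (a sialyltransferase of O-linked sugar chains), the calcium-binding proteins S100A2 and S100P, and DHRS13 (a short-chain dehydrogenase). SLC6A14 read 5.68, 5.31 and 5.20 in control and 4.48 to 4.73 in activated arrays, which is close to the silent level. AQP3 is outside the core: its controls spread from 6.18 to 6.83 and its call was lost without control replicate 1 (adjusted p = 0.0873, limma).

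Outside chromosome Y, the largest rise with separate arrays was that of ARG2, the mitochondrial arginase, which splits arginine into ornithine and urea. It read 6.60, 6.71 and 6.47 log2 units in control, 7.35, 7.42 and 7.35 with sgRNA-A and 7.84, 7.66 and 7.67 with sgRNA-B, and the activated arrays cleared the controls by 0.64 (log2 fold change 0.96, SE 0.07; adjusted p = 3.01e-05, limma). PCDHB6, a clustered protocadherin, and BMP4, a secreted growth factor of the TGF-beta family, rose with 1 low control each. PCDHB6 was at 5.95, 6.05 and 5.21 in control and at 6.34 to 6.72 in activated arrays (0.90, SE 0.16; adjusted p = 0.00591), and BMP4 at 6.25, 6.11 and 5.55 in control and at 6.53 to 7.06 in activated arrays (0.83, SE 0.14; adjusted p = 0.00369). Control replicate 3 was the low array in both. CD79A, a signalling chain of the B-cell receptor, rose from 6.75, 6.62 and 6.56 in control to between 7.13 and 7.68 (0.82, SE 0.09; adjusted p = 0.000403). The B-cell marker MS4A1 lay at 3.67 and PTPRC at 3.61, both below the silent level.

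S100A3, a calcium-binding protein, rose from 7.55 to 7.70 in control to 8.19 to 8.70 in activated arrays (0.82, SE 0.10; adjusted p = 0.000488, limma), the direction opposite to that of its paralogs S100A2 and S100P. NRK, a kinase of the germinal-centre kinase family, had the widest gap between the groups after ARG2 among these 15 rises: 5.46, 5.44 and 5.38 in control against 6.09 to 6.32 (0.76, SE 0.09; adjusted p = 0.000403). The other rises among the largest were those of GPX8, a peroxidase of the endoplasmic reticulum (0.74), DHRS3, a retinaldehyde reductase (0.69), ETV5, an ETS transcription factor (0.66), PRLR, the prolactin receptor (0.65), ATP5MC1, a subunit of the ATP synthase ring (0.65), the interferon-induced IFIT1 (0.64) and IFIT3 (0.63), and the IGF-binding proteins IGFBP4 (0.64) and IGFBP6 (0.63). All 15 are in the core.

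**Figure D2:**
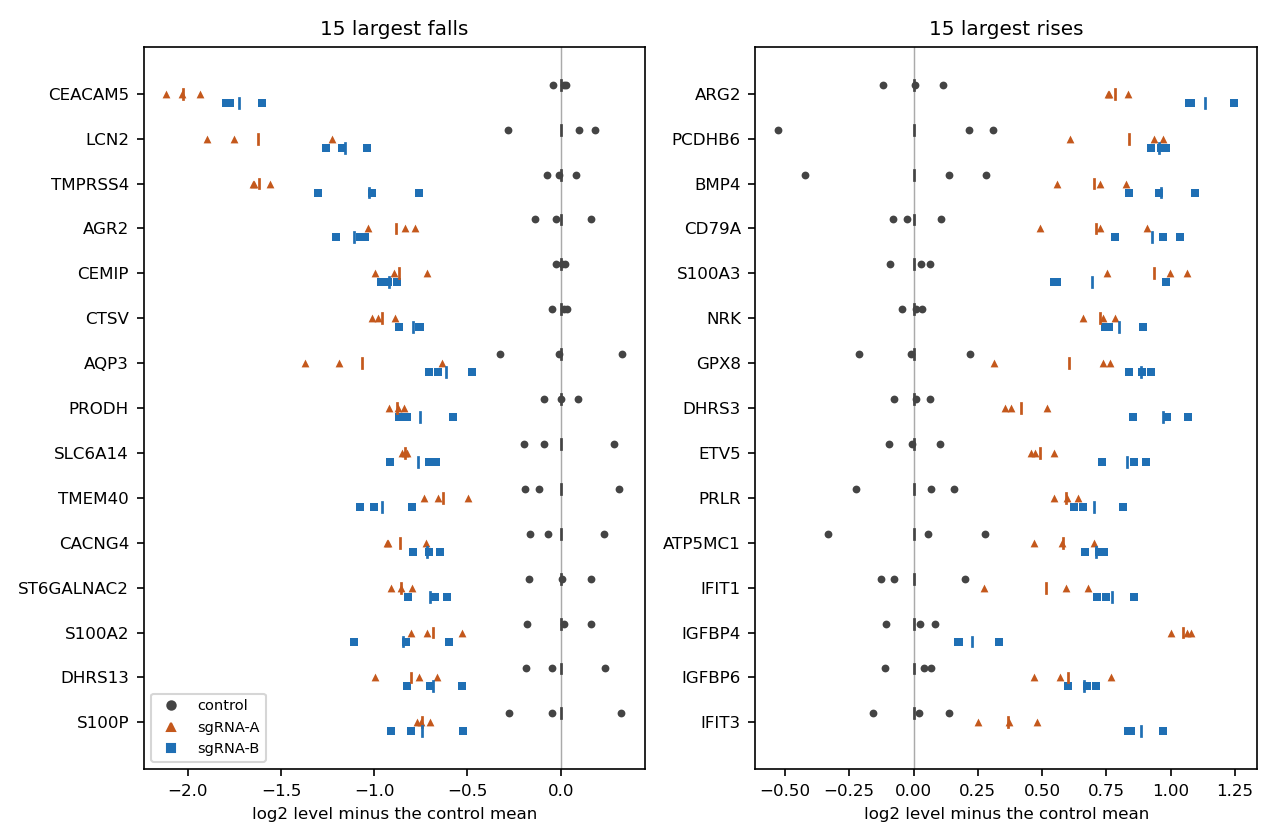
Each point is 1 array, plotted as its log2 level minus the mean of the control arrays. Shown are the 15 largest falls (left) and the 15 largest rises (right) with separate arrays, outside chromosome Y. Short bars are group means, circles control, triangles sgRNA-A and squares sgRNA-B. CEACAM5 lies furthest from its controls, and IGFBP4 is the rise in which sgRNA-A (1.05 above control) and sgRNA-B (0.23) differ most.

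Gene lists were used to see which functions held the changed genes. For each, the counts that rose and fell stand beside the 1.77% and 1.8% of all genes that did so. Those shares include silent genes, of which 0.325% changed in either direction. Among genes of 8 to 10 log2 units 9.42% changed, and above 10 log2 units 10.6% did. Lists of well-expressed genes were not compared with genes of the same level. Among the 41 lists, G2/M and mitosis had the largest share of risen members.

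Genes of G2/M and mitosis were higher in activated cells, by small amounts. Of 60 measured, 26 rose, 0 fell (0 also at an unadjusted p below 0.05 downward, and 44 upward) and 34 did not pass limma's test. The median was 0.15, against 0.00071 over all genes, 58 of 60 had a fold change above 0, and the medians with sgRNA-A (0.15) and sgRNA-B (0.16) lay close together. Only 14 rose without control replicate 1 and 14 without control replicate 3, and 12 are in the core. CDC20, which activates the anaphase-promoting complex, had the smallest adjusted p of the list, with 11.13, 11.13 and 11.14 in control, 11.37, 11.37 and 11.38 with sgRNA-A and 11.47, 11.46 and 11.43 with sgRNA-B (0.28, SE 0.03; adjusted p = 0.000166). DLGAP5, a microtubule-binding protein of the spindle, rose from 10.62 to 10.67 in control to 10.88 to 10.97 (0.25, SE 0.03; adjusted p = 0.000828). HJURP, the chaperone that deposits the centromeric histone, rose by 0.26 and that histone itself, CENPA, by 0.34. FAM83D, a spindle protein, rose from 9.88 to 9.93 in control to 10.07 to 10.30 (0.33, SE 0.04; adjusted p = 0.000711).

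The other core members of the list were the kinesin KIF20A (0.40), the phosphatase CDC25C (0.37), which activates the mitotic kinase CDK1, the spindle protein ASPM (0.30), the centrosomal kinase NEK2 (0.26), the cyclin CCNB2 (0.23), the checkpoint kinase BUB1 (0.20) and AURKB (0.20), the kinase of the chromosomal passenger complex. Outside the core rose AURKA, PSRC1, NDC80, CDCA8, CDCA3, HMMR, KIF2C, FOXM1, CCNB1, NUF2, BIRC5, TTK, CCNA2 and PLK1, by 0.14 to 0.39. Of the 26, 25 had separate arrays, TTK being the exception. FOXM1, CCNB1, AURKA and PLK1, central drivers of mitotic entry, were thus among the less firm calls.

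Many mitotic promoters share the cell cycle homology region, at which the DREAM complex represses them in resting cells. Only its form TTTGAA was searched. The core members KIF20A, CDC25C, AURKB, BUB1 and NEK2 lack these exact letters, on either strand, within 150 bases before the annotated start. Whether they hold another form was not searched. Upstream sequences are shown for 6 core members with TTTGAA, and for KIF20A and the replication gene MCM6, which lack it. They come from RefSeq (GRCh38.p14), are written 5′ to 3′ along the gene's strand and end at the base before the start; capitals mark TTTGAA or its reverse complement TTCAAA. The stretches are chr1:43358831-43358980 (plus strand) for CDC20, chr14:55191586-55191735 (minus strand) for DLGAP5, chr2:233854536-233854685 (minus strand) for HJURP, chr1:197146670-197146819 (minus strand) for ASPM, chr2:26785906-26786055 (plus strand) for CENPA, chr15:59104996-59105145 (plus strand) for CCNB2, chr5:138178962-138179111 (plus strand) for KIF20A and chr2:135876444-135876593 (minus strand) for MCM6.
CDC20: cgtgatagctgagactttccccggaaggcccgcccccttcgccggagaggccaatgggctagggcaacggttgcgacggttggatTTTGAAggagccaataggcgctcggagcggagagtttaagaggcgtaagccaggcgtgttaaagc
DLGAP5: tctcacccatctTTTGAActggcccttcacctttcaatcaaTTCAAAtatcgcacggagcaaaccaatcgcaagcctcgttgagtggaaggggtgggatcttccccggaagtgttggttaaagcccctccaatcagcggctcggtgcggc
HJURP: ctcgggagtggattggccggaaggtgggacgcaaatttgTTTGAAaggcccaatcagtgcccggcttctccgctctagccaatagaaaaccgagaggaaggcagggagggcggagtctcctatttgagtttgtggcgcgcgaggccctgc
ASPM: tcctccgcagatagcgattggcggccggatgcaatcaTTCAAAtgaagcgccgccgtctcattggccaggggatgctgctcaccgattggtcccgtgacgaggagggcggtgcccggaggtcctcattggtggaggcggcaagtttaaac
CENPA: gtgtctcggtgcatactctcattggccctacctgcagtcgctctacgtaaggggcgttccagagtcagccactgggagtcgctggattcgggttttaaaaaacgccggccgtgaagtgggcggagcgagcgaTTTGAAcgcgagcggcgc
CCNB2: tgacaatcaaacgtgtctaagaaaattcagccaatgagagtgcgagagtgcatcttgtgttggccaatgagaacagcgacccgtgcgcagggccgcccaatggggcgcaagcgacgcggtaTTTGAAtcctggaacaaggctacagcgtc
KIF20A: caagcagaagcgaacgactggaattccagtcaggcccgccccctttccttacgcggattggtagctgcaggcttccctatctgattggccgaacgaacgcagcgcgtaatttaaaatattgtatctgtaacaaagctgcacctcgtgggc
MCM6: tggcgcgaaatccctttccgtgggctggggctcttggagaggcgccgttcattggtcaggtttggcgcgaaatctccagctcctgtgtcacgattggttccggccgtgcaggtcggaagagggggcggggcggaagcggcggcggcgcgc

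Over windows from 250 bases before to 50 after the start (1 per gene, 17059 genes matched by symbol), TTTGAA on either strand occurred in 12.7% of all promoters. It occurred in 35 of the 51 G2/M genes with a window and in 1 of 36 replication genes. Of the 35 with these exact letters 12 rose (median log2 fold change 0.13), and of the 16 without them 9 rose (median 0.20). Other forms of the element and other starts were not searched, so this does not compare genes with and without the element. TTTGAA was present in 16.6% of the promoters of all genes that rose and 9.88% of those that fell. CCAAT, on either strand, was in 36.1% of all windows, in 40 of the 51 G2/M genes and in 20 of the 36 replication genes. A match is a run of letters, not a bound site.

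DNA replication genes did not follow the mitotic ones. Of 41, 1 rose, 4 fell and 36 did not pass, with a median of -0.05. TK1, thymidine kinase, rose (0.22, SE 0.04; adjusted p = 0.00473, limma). MCM6, a subunit of the replicative helicase, read 10.39, 10.36 and 10.39 in control and 10.13 to 10.23 in activated arrays (-0.19, SE 0.03; adjusted p = 0.00513). Both are in the core. The E-type cyclins, which start S phase, fell outside it: CCNE2 (-0.30) lost its call without control replicate 2 or 3 (adjusted p up to 0.0851) and CCNE1 (-0.21) without control replicate 1 or 2 (up to 0.124), as did the replication initiator MCM10 (-0.18) in at least 1 refit. Without control replicate 2 the falls numbered 1 and without control replicate 3 they numbered 2, and without sgRNA-A replicate 3 there were 2 rises.

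The sterol and lipid synthesis genes that changed all rose. Of 29, 6 rose, 0 fell (14 higher and 2 lower at an unadjusted p below 0.05) and 23 did not pass limma's test, with a median of 0.09. DHCR7, which makes cholesterol from its last precursor, read 9.85, 9.66 and 9.83 in control, 10.15, 10.03 and 10.10 with sgRNA-A and 10.32, 10.19 and 10.27 with sgRNA-B (0.39, SE 0.05; adjusted p = 0.000839). STARD4, a sterol carrier, rose by 0.37, ACAT2, which forms acetoacetyl-CoA, by 0.30, and SQLE, squalene epoxidase, by 0.20; these 4 are in the core. ELOVL6 (0.19) and ACLY (0.14), of fatty acid synthesis, rose outside it. Without control replicate 2, 2 members fell. The list's median stood at 0.04 in the sgRNA-A clone and at 0.15 in the sgRNA-B clone, a difference that was not tested.

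**Figure D3:**
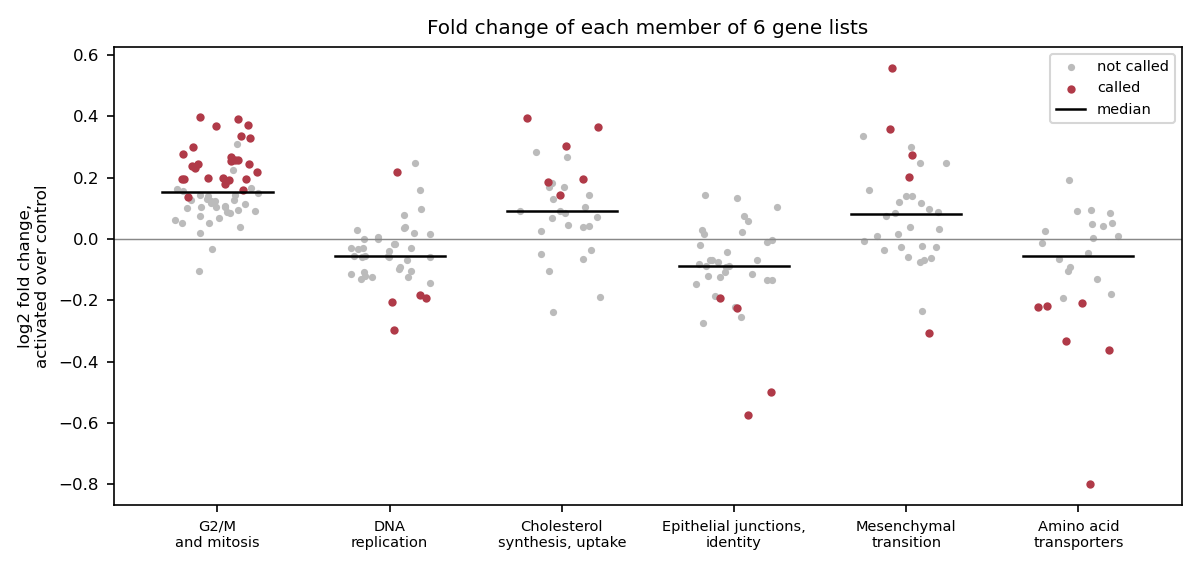
Each point is the log2 fold change of 1 member of 6 gene lists, activated over control, red where it changed in limma and grey where it did not; bars are list medians. Mitotic genes sit above 0 nearly throughout (58 of 60), replication genes do not (12 of 41), and SLC6A14 is the lowest point at -0.80.

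Interferon-response genes moved in both directions. Of 42, 9 rose, 4 fell and 29 did not pass, and 7 of the rises and all 4 falls are in the core. ISG15, a ubiquitin-like modifier, read 8.84, 8.89 and 8.88 in control, 9.18, 9.26 and 9.30 with sgRNA-A and 9.29, 9.34 and 9.26 with sgRNA-B (0.40, SE 0.05; adjusted p = 0.000402, limma). IFIT3, which binds foreign RNA in a complex with other IFIT proteins, read 5.92, 5.81 and 5.63 in control, 6.27, 6.04 and 6.16 with sgRNA-A and 6.62, 6.76 and 6.63 with sgRNA-B (0.63, SE 0.10; adjusted p = 0.00266). The further core rises were IFIT1 (0.64), IFI44 (0.41), the tethering factor BST2 (0.29) and the membrane restriction factors IFITM2 (0.29) and IFITM3 (0.24). In the other direction, OAS1, which makes the activator of RNase L, read 7.15, 7.13 and 7.10 in control and 6.45 to 6.82 in activated arrays (-0.49, SE 0.07; adjusted p = 0.00265). IFI27 (-0.61), IFI6 (-0.54, arrays overlapping) and IFITM1 (-0.51) fell with it. The mean level of IFI27 was 4.48, close to the silent level. The IFITM genes were thus split, with IFITM1 lower and its relatives IFITM2 and IFITM3 higher in the same cells.

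Of 24 genes of antigen presentation, 2 rose, 0 fell (5 higher and 1 lower at an unadjusted p below 0.05, limma) and both rises are in the core. ERAP2, the aminopeptidase that trims peptides for MHC class I, rose from 9.34 to 9.41 in control to 9.73 to 9.97 (0.44, SE 0.05; adjusted p = 0.000628). TAPBP, tapasin, which helps load the peptides, rose by 0.37.

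On the secretory side, 6 of 38 mucin and mucosal secretion genes fell, 1 rose and 31 did not pass; 20 of the 38 lay at the silent level. After LCN2 and AGR2 came MUC16, the CA125 mucin, from 8.59 to 8.75 in control to 8.02 to 8.35 (-0.50, SE 0.06; adjusted p = 0.000462, limma), and SCGB3A2, a secretoglobin of the airway (-0.46), whose highest control read 4.45, so that its fall lies within the range of silent genes. SLPI, an antiprotease, read -0.33 and CLCA2 -0.15, both outside the core. CLCA2 and SLPI had mean levels of 3.83 and 4.42, below the silent level. The membrane mucin MUC13, also below it at 4.06, rose by 0.22, a call lost without control replicate 1 or 3, when 0 members rose. Without sgRNA-A replicate 1 or sgRNA-B replicate 3, 2 did. Enzymes that build O-linked and other glycans gave 3 falls and 0 rises (1 higher at an unadjusted p below 0.05) among 35, all 3 in the core: ST6GALNAC2, GALNT5, which starts O-glycan chains (-0.55), and FUT8, the core fucosyltransferase (-0.20).

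CEACAM5 was joined by CEACAM6, its neighbour on chromosome 19 and also an adhesion glycoprotein, which read 11.73, 11.88 and 11.75 in control and 11.14 to 11.29 in activated arrays (-0.57, SE 0.04; adjusted p = 1.86e-05, limma). The fall of CEACAM1 (-0.27) was not firm: its arrays overlapped and the call was lost when any of 7 arrays was left out. In all, 3 of 12 CEACAM genes fell, 0 rose (0 also unadjusted) and 7 lay at the silent level. Among membrane serine proteases and their inhibitors, 2 of 32 fell and 3 rose. With TMPRSS4 fell TMPRSS11E (-0.44, SE 0.05; adjusted p = 0.000235), while PLAU, the urokinase plasminogen activator (0.17), and SERPINA1, the inhibitor of neutrophil elastase (0.27), rose in the core and KLK6 (0.33) outside it.

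Of 19 S100 genes, 4 fell and 1 rose. S100A2 read 8.29, 8.09 and 8.43 in control and 7.16 to 7.74 in activated arrays (-0.77, SE 0.11; adjusted p = 0.00138, limma), and S100P 5.19, 5.42 and 5.79 in control and 4.55 to 4.94 in activated arrays (-0.74, SE 0.13; adjusted p = 0.00493). S100A14, at a much brighter 11.83 to 11.91 in control, fell by a smaller 0.21 (-0.21, SE 0.03). S100A16 (-0.14) fell outside the core. S100A2, S100A16 and S100A14 are neighbours on chromosome 1, in the gene cluster that also holds S100A3, which rose.

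Epithelial junction and identity genes tended lower without large changes. Of 35, 4 fell, 0 rose (17 lower and 1 higher at an unadjusted p below 0.05) and 31 did not pass limma's test, with a median of -0.09 and 8 above 0. The core fall was that of DSC2, a desmosomal cadherin, from 10.84 to 10.94 in control to 10.23 to 10.52 (-0.50, SE 0.05; adjusted p = 0.000128). The transcription factors GRHL1 (-0.57) and ELF3 (-0.23) and the desmosomal linker DSP (-0.19) fell outside it: leaving out control replicate 1 ended the call of GRHL1 (adjusted p = 0.0618), leaving out control replicate 2 that of DSP (0.062) and leaving out control replicate 2 or 3 that of ELF3 (up to 0.0867). EPCAM (0.08; adjusted p = 0.0898) and CDH1 (-0.08; adjusted p = 0.166) did not pass. The summed level of the 8 epithelial markers was 15.08 to 15.14 in control and 15.04 to 15.07 in activated arrays, and KRT7, the only keratin of 15 to change, fell by 0.15 (a log2 fold change of -0.15), a call lost without control replicate 1 or 2 (up to 0.0889), when 0 keratins fell, and joined by 1 more without sgRNA-A replicate 1.

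Of 23 squamous and basal genes, 4 fell, 0 rose (8 lower and 0 higher at an unadjusted p below 0.05, limma): S100A2 in the core, PKP1 (-0.49), PERP (-0.34) and the dim CLCA2 (-0.15) outside it. Without control replicate 2 the falls numbered 2 and without control replicate 3 they numbered 1. In the mesenchymal list 4 of 32 rose and 1 fell (12 higher and 2 lower at an unadjusted p below 0.05), with a median of 0.08. LOXL2, a collagen cross-linking oxidase, read 8.41, 8.17 and 8.20 in control and 8.72 to 8.92 in activated arrays (0.56, SE 0.06; adjusted p = 0.000403). AXL, a receptor tyrosine kinase, rose from 10.70 to 10.93 in control to 11.04 to 11.25 (0.36, SE 0.05; adjusted p = 0.00157). COL6A2 (0.27) and VIM (0.20) rose outside the core, and 2 members rose without control replicate 1 or 3. TNC, tenascin C, fell, from 11.47 to 11.57 in control to 11.06 to 11.29 (-0.31, SE 0.04; adjusted p = 0.000403).

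Among Notch genes, 4 of 29 fell and 0 rose (7 lower and 0 higher at an unadjusted p below 0.05, limma). The receptor NOTCH3 read 7.45, 7.11 and 7.41 in control and 6.61 to 6.95 in activated arrays (-0.55, SE 0.09; adjusted p = 0.00367), and its ligand JAG1 10.40, 10.36 and 10.52 in control, 10.16, 10.21 and 10.20 with sgRNA-A and 9.88, 9.88 and 10.01 with sgRNA-B (-0.37, SE 0.05; adjusted p = 0.000544). These are the 2 core falls. The coactivator MAML2 (-0.31) and the target gene HES1 (-0.21) fell outside the core, and the list had 2 falls when any 1 control replicate, sgRNA-B replicate 1 or sgRNA-B replicate 3 was left out. No member of the 44 WNT genes changed (4 higher and 3 lower at an unadjusted p below 0.05, limma), though 1 rose without sgRNA-B replicate 2.

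Outputs of ERK signalling did not move as a block: of 30, 3 rose and 3 fell. The ETS factors ETV5 and ETV1, transcribed in response to ERK, rose. ETV5 read 5.55, 5.75 and 5.64 in control, 6.20, 6.12 and 6.11 with sgRNA-A and 6.56, 6.51 and 6.38 with sgRNA-B (0.66, SE 0.09; adjusted p = 0.00105, limma), and ETV1 no more than 5.99 in control and 6.39 to 6.61 in activated arrays (0.57, SE 0.09; adjusted p = 0.00271). The phosphatases DUSP5 and DUSP7, which inactivate ERK, fell. DUSP5 read 9.37, 9.31 and 9.35 in control and 8.89 to 9.02 in activated arrays (-0.38, SE 0.04; adjusted p = 0.000402), and DUSP7 was at -0.38 with an adjusted p of 0.000686. FOSL1 (0.16) and the ephrin receptor EPHA4 (-0.56) changed outside the core, the latter lost without control replicate 1 (adjusted p = 0.0586). Without control replicate 2, 5 members fell.

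Of 18 ERBB receptors, ligands and regulators, 4 fell and 0 rose (7 lower and 0 higher at an unadjusted p below 0.05, limma). The ligand EREG, epiregulin, read 10.04, 10.04 and 9.94 in control and 9.64 to 9.87 in activated arrays (-0.26, SE 0.04; adjusted p = 0.00312), and the feedback inhibitor ERRFI1 12.38, 12.38 and 12.40 in control and 12.23 to 12.28 in activated arrays (-0.14, SE 0.02; adjusted p = 0.0072). Both are in the core. EGFR (-0.22), lost without control replicate 3 (adjusted p = 0.0642), and the ligand HBEGF (-0.39) are not, and without control replicate 3 the falls numbered 2. HBEGF read 8.20, 8.13 and 8.16 in control and 7.42 to 7.94 in activated arrays; leaving out any of 6 arrays ended its call (up to 0.172).

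In the BMP and TGF-beta list of 41, BMP4 was the only core change. TGFB1 (0.38), SMAD3 (0.22) and GDF15, a stress-induced ligand (-0.35), passed the test with adjusted p from 0.0291 to 0.0492 (limma) and lost it when any of several arrays, each of the 3 controls among them, was left out, so that the list had 1 rise when any 1 array other than sgRNA-A replicate 2 or 3 was left out, and 0 falls without any 1 control replicate, sgRNA-A replicate 1 or sgRNA-B replicate 1 or 3. GDF15 is also the 1 fall of the ATF4 list and of the p53 list. In the IGF system, 2 binding proteins rose in the core: IGFBP6 read 8.04, 8.01 and 7.86 in control and 8.43 to 8.73 in activated arrays (0.63, SE 0.07; adjusted p = 0.000293). IGFBP4 is described with the clone differences. IGFBP3 fell, from 7.80, 7.26 and 7.55 to between 6.75 and 7.09 (-0.61, SE 0.11; adjusted p = 0.00731), a call lost without control replicate 1 (0.0572), and the receptor IGF1R (-0.24), with overlapping arrays, lost its call without any of 6 arrays (up to 0.19). Without control replicate 1, 0 members fell, and 1 fell without control replicate 3, sgRNA-A replicate 1, sgRNA-B replicate 1 or sgRNA-B replicate 2.

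The retinoid genes included 2 oxidoreductases that moved apart. DHRS3, which turns retinaldehyde back into retinol, rose, and DHRS9, which can oxidise retinol, read 6.32, 6.41 and 6.27 in control and 5.51 to 5.76 in activated arrays (-0.70, SE 0.09; adjusted p = 0.00111, limma). ALDH1A3, which makes retinoic acid, rose from 10.36 to 10.52 in control to 10.55 to 10.78 (0.26, SE 0.04; adjusted p = 0.00271). RDH11 (0.16) rose with overlapping arrays, and its call was lost when any array was left out.

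Amino acid transport held only falls among its changed genes. Of 24 plasma membrane transporters, 6 fell and 0 rose (1 higher at an unadjusted p below 0.05, limma), 4 in the core; without sgRNA-B replicate 1, 1 rose. SLC7A5, which exchanges large neutral amino acids, read 12.51, 12.39 and 12.52 in control, 12.23, 12.23 and 12.16 with sgRNA-A and 12.06, 12.05 and 12.10 with sgRNA-B (-0.33, SE 0.03; adjusted p = 0.000175). Its partner subunit SLC3A2 fell with it, from 11.35 to 11.46 in control to 11.11 to 11.28 (-0.22, SE 0.03; adjusted p = 0.00227). SLC38A2, a sodium-coupled importer of small neutral amino acids, fell from 12.37 to 12.47 to between 12.17 and 12.22 (-0.22, SE 0.03; adjusted p = 0.000979). Together with SLC6A14 these are the core falls, and SLC6A9 (-0.36) and SLC6A6 (-0.21) fell outside it.

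Of 28 genes of arginine, proline and polyamine metabolism 3 changed, all in the core. ARG2 rose, PRODH fell, and SAT1, which acetylates polyamines for export, read 10.30, 10.46 and 10.22 in control and 9.64 to 9.83 in activated arrays (-0.59, SE 0.05; adjusted p = 0.000118, limma). In the ATF4 list, 5 of 36 rose and 1 fell. PSAT1, an enzyme of serine synthesis, read 11.36, 11.35 and 11.39 in control and 11.60 to 11.73 in activated arrays (0.29, SE 0.03; adjusted p = 0.000439), PHGDH, of the same pathway, rose by 0.33 and SHMT2, which converts serine to glycine in mitochondria, by 0.32, all in the core. The endoplasmic reticulum chaperones CALR (0.13) and CANX (0.12) rose outside it. The rises numbered 3 without control replicate 2, sgRNA-A replicate 3 or sgRNA-B replicate 1 or 3, and the fall, that of GDF15, was lost without any 1 control replicate, sgRNA-A replicate 1 or sgRNA-B replicate 1 or 3.

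Matrix and attachment genes were mixed. Besides CEMIP, the hyaluronan synthase HAS3 fell from 7.52 to 7.68 in control to 7.10 to 7.35 (-0.39, SE 0.07; adjusted p = 0.00922, limma), so that an enzyme that makes hyaluronan and a protein that degrades it were both lower. The proteoglycan VCAN (0.42) and HMMR (0.24) rose outside the core; without control replicate 1, 0 of the 26 members rose, and 1 rose without control replicate 2 or 3, sgRNA-A replicate 2 or sgRNA-B replicate 1 or 3. Among integrins and laminins 3 of 29 rose and 4 fell. LAMB1, a laminin chain, rose from 10.28 to 10.35 in control to 10.49 to 10.63 (0.27, SE 0.04; adjusted p = 0.00112). ITGB6, an epithelial integrin chain that can activate latent TGF-beta, fell from 10.55 to 10.62 to between 10.19 and 10.42 (-0.31, SE 0.05; adjusted p = 0.00292), and LAMB3, a chain of the laminin of epithelial basement membranes, fell by 0.29 (-0.29). Outside the core ITGA4 (0.55, arrays overlapping) and LAMA4 (0.31) rose and ITGB8 (-0.43) and ITGA2 (-0.16) fell. The list had 1 rise without control replicate 2 or 3, and 2 falls without control replicate 1 or 3, sgRNA-A replicate 1 or 3 or sgRNA-B replicate 2.

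Of 13 genes of caveolae, 3 rose, 0 fell (3 higher and 0 lower at an unadjusted p below 0.05, limma) and 10 did not pass. CAVIN3 read 8.89, 9.04 and 8.99 in control and 9.13 to 9.34 in activated arrays (0.30, SE 0.05; adjusted p = 0.0059), CAVIN2 rose by 0.59, and the coat protein CAV1, outside the core, by 0.13. Of 42 axon guidance genes, 2 rose and 4 fell. SEMA3E, a secreted semaphorin, rose from 7.85 to 7.92 in control to 8.20 to 8.72 (0.52, SE 0.06; adjusted p = 0.000552), and the ephrin EFNB2 fell from 10.87 to 10.94 to between 10.51 and 10.67 (-0.32, SE 0.04; adjusted p = 0.000403). The other 4 changes, EFNA3 (0.40), EPHA4, PLXNB2 (-0.26) and NRP2 (-0.18), are outside the core. In that list 1 rose when any 1 control or sgRNA-B replicate was left out, and without control replicate 1 or 3 the falls numbered 1 and 2. Of 40 clustered protocadherins, PCDHB6 rose in the core and PCDHGB2 (0.33) outside it; without any 1 control replicate, sgRNA-A replicate 2 or sgRNA-B replicate 1 or 2, 1 rose.

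Lysosomal genes gave 3 rises and 4 falls among 31. CST6, a secreted inhibitor of cysteine cathepsins, CTSV among them, rose from 8.52 to 8.62 in control to 8.90 to 9.19 (0.46, SE 0.05; adjusted p = 0.000293, limma), opposite to CTSV. CD68, a lysosomal membrane protein also used as a macrophage marker, rose from 8.44 to 8.47 in control to 8.65 to 8.77 (0.27, SE 0.04; adjusted p = 0.00451). The summed level of 11 leukocyte markers, CD68 included, was 8.99 to 9.04 in control and 9.17 to 9.25 in activated arrays; 2 of the 11, CD68 and CSF1R, lay above the silent level, and LYZ (3.71) did not. GPNMB fell by 0.57 (-0.57, arrays overlapping), and CTSA (0.15), CTSH (-0.42) and CTSS (-0.40) changed outside the core. Without control replicate 1 the falls numbered 2.

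Of 34 genes of glutathione and the NRF2 response, 4 rose and 3 fell. GPX8 read 7.48, 7.25 and 7.05 in control, 7.57 to 8.02 with sgRNA-A and 8.10, 8.18 and 8.15 with sgRNA-B (0.74, SE 0.11; adjusted p = 0.00156, limma), and the secreted peroxidase GPX3 rose by 0.26. GSTP1, which conjugates glutathione to toxic compounds, fell from 10.31, 10.38 and 10.12 to between 9.54 and 10.04 (-0.46, SE 0.07; adjusted p = 0.00186). AKR1B10 (-0.50) and GCLC (-0.22) fell and GPX1 (0.23) and HMOX1 (0.21) rose outside the core, and without control replicate 2 or 3 the list had 1 fall. In the hypoxia list of 35, LOXL2 and BNIP3L (0.22) rose and the glucose transporter SLC2A1 fell (-0.17, SE 0.03; adjusted p = 0.00486); BNIP3L lost its call without control replicate 1 (0.0506), which left 1 rise. In the YAP list of 26, AXL and CRIM1 (0.17) rose and F3, tissue factor, fell from 12.53 to 12.56 in control to 12.25 to 12.42 (-0.21, SE 0.03; adjusted p = 0.000643). CRIM1 lost its call without any 1 control replicate, sgRNA-A replicate 2 or sgRNA-B replicate 1 or 3, which left 1 rise.

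The remaining lists held few changed genes. In the coagulation and complement list of 28, F3 and CD55, which protects cells from complement, fell (CD55 from 13.04 to 13.08 in control to 12.73 to 12.93; -0.22, SE 0.03; adjusted p = 0.00208, limma), and THBD rose (0.49), a call lost without control replicate 2 (0.05). Without control replicate 3 or sgRNA-B replicate 1, 2 members rose. Of 34 NF-kappaB targets, TNFAIP2 rose in the core (0.36, SE 0.05; adjusted p = 0.00093) and SOD2 (0.21), with overlapping arrays, lost its call without any 1 array other than sgRNA-A replicate 2, which left 1 rise. Of 37 respiratory chain genes, ATP5MC1 rose in the core, from 8.41, 9.02 and 8.80 to between 9.21 and 9.48, and NDUFA1 (0.17) outside it, lost without any 1 array other than control replicate 1; the list had 1 rise without control replicate 3 or any 1 activated replicate. Of 26 p53 targets, CCNG1 (0.18) rose and GDF15 fell, both outside the core. The p53 list had 0 rises without control replicate 1 or 3, sgRNA-A replicate 1 or 3 or sgRNA-B replicate 2 or 3, and 0 falls without the arrays named for GDF15. No cytosolic ribosomal protein gene of 31 changed (5 higher and 2 lower at an unadjusted p below 0.05, limma), though 3 rose without sgRNA-A replicate 2 and 1 rose and 1 fell without sgRNA-B replicate 2. Of 29 epithelial channels and aquaporins, AQP3, ATP1B3 (-0.23) and KCNN4 (-0.22) fell and the dim AQP7 (0.30) rose. None of these is in the core: without control replicate 1, 0 rose and 0 fell, without control replicate 3, 0 rose and 1 fell, and AQP7 was also lost without control replicate 2 or sgRNA-A replicate 1 or 2.

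Bright genes changed little but measurably. The brightest rises with separate arrays were those of HSPB1, a small heat shock protein, from 12.40 to 12.51 in control to 12.61 to 12.82 (0.26, SE 0.03; adjusted p = 0.000359, limma), LGALS1, galectin 1, from 12.14 to 12.33 to between 12.56 and 12.65 (0.36, SE 0.04; adjusted p = 0.000246), BASP1, a membrane-bound signalling protein, by 0.28, and CALR. The brightest falls were those of ANXA1, annexin A1, from 13.22 to 13.23 in control to 13.02 to 13.13 (-0.14, SE 0.03; adjusted p = 0.0071), CD55, F3 and ANXA5 (-0.16). CALR and ANXA5 are outside the core: CALR lost its call without any of 5 arrays (up to 0.122) and ANXA5 without any of 8 (up to 0.152).

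Pooling added genes that neither guide showed alone. Of the 855, 298 also passed against control with each guide, 150 with sgRNA-A only, 281 with sgRNA-B only and 126 with neither, 71 of them higher and 55 lower. These counts share the control arrays and compare nothing between the guides. The 126 were smaller changes, with a median size of 0.23, and 121 had separate arrays, but none is in the core of 314, of which 248 passed with each guide. The largest were the rises of the inositol phosphate kinase PPIP5K1 (0.62), the microRNA gene MIR4469 (0.54), the neuropeptide receptor NPBWR1 (0.49), PTN, pleiotrophin (0.46), the homeobox gene BARX1 (0.46) and SERP2 (0.43), and the falls of the calpain CAPN8 (-0.46), KIFC3, a minus-end kinesin (-0.39), the microRNA gene MIR1237 (-0.39), the forkhead factor FOXE1 (-0.39), HBEGF (-0.39) and LOC93429 (-0.37). MIR1237 read 4.41 to 4.75 in control, close to the silent level. Each of these 12 lost its call when any of 5 to 7 arrays was left out, with adjusted p up to 0.214 (limma).

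The clones were compared as sgRNA-A minus sgRNA-B, in the same fit and with the same residual variance as the pooled contrast. Over all genes 25 differed (0.104%), with 2511 at an unadjusted p below 0.05 in limma. Of the 855 changed genes 9 were among the 25 and 223 among the 2511. The count of 25 was 9, 8 and 11 without sgRNA-A replicates 1, 2 and 3, and 6, 8 and 12 without sgRNA-B replicates 1, 2 and 3. MB, myoglobin, read 6.94, 7.28 and 7.42 in control, 8.89, 8.91 and 9.02 with sgRNA-A and 7.36, 7.35 and 7.46 with sgRNA-B: its pooled rise of 0.96 was a rise in the sgRNA-A clone, and its sgRNA-B arrays overlapped the controls. FBXO2, which marks glycoproteins for breakdown, showed the reverse, at 6.43, 6.45 and 6.63 in control, 6.61, 6.81 and 6.77 with sgRNA-A and 7.95, 7.81 and 7.95 with sgRNA-B (pooled 0.82). IGFBP4 read 7.85, 7.65 and 7.79 in control, 8.84, 8.83 and 8.76 with sgRNA-A and 7.93, 8.10 and 7.94 with sgRNA-B, so its arrays were separate with a gap of 0.09. PCDH19, a protocadherin, read 8.67, 8.60 and 8.56 in control, 7.53, 7.64 and 7.76 with sgRNA-A and 8.55, 8.43 and 8.28 with sgRNA-B, with a gap of 0.01. HMOX1, heme oxygenase 1, was the only changed gene whose clone means lay on opposite sides of control (0.45 with sgRNA-A, -0.02 with sgRNA-B), and its pooled call was lost without control replicate 2 or 3 (up to 0.0806).

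**Figure D4:**
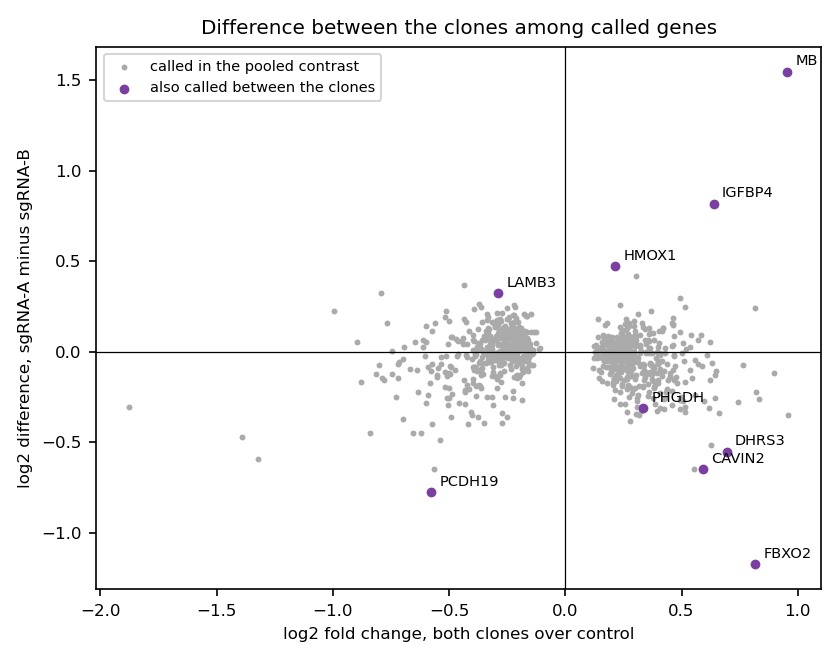
Each point is 1 of the 855 genes that changed in the pooled contrast, with the pooled log2 fold change on the x axis and the difference sgRNA-A minus sgRNA-B on the y axis. The 9 labelled genes also differed between the clones, from -1.17 for FBXO2 to 1.55 for MB.

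The criterion of separate arrays has no margin, and its edge runs through similar genes. Just inside it, GNPDA1 read 7.87 in its lowest activated array and 7.87 in its highest control (gap 0.001), and USP37 8.93 in its highest activated array and 8.94 in its lowest control. Just outside, SOD2 read 9.56 in its lowest activated array against 9.57 in its highest control, and KLHL36 8.39 against 8.39. All 4 passed limma's test with adjusted p from 0.0288 to 0.049 and are outside the core. With a margin of 0.1 log2 units, 493 of the 1977 genes would remain.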

How the data were processed

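The authors' deposited table holds log2 expression values for 24733 probe sets on 9 arrays, made with RMA per the submitters' processing notes; RMA summarises the probes of a set and forces all arrays to 1 distribution, which removes any shift of a whole array. The version, array software settings and annotation build were not given in the sources used here. Array medians were 4.91 log2 units throughout. Probe sets with 1 symbol (23934) were used and 799 without a symbol were left out. Where a symbol was repeated, only the probe set with the highest mean level was kept, which gave 23931 genes.

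Group means were fitted with limma 3.58.1 (R 4.3.3; lmFit, then eBayes with an intensity trend; 6 residual and 7.27 prior degrees of freedom). The pooled contrast is the mean of the sgRNA-A and sgRNA-B means minus the control mean, and every adjusted p is limma's, Benjamini-Hochberg over 23931 genes, with 0.05 as threshold. With 3 arrays a group, p-values measure the spread between cultures of these clones, and the number of arrays limits the precision. In each of 5 simulations, 200 genes drawn at random from all genes, silent ones included, were shifted alike in both clones. The pooled contrast recovered 36.8% of those changed by 0.25 log2 units and 81.2% of those changed by 0.5. On average 4.68% of its calls were of unchanged genes. The simulated arrays held no difference between clones, so recovery in the measured arrays may differ.

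The genes, the 41 lists and the named-gene rule were chosen with earlier results of these data known. The rule took the 15 largest called rises and falls with separate arrays, genes of chromosome Y left out. It also took up to 4 called members of each list by adjusted p, and up to 6 genes each way called with neither guide alone. It added up to 5 clone differences each way, the 4 brightest each way and 2 genes on each side of the edge. The 14q32 genes and cell type markers were taken too. Other called list members are named after their values were seen. The core, genes called in each fit that left out 1 array, was chosen after values were seen. Replicate numbers were checked for pairing: the deviations of same-numbered arrays correlated at -0.1454 to 0.1351, so the numbers were not taken to pair arrays. Alternatives varied the variance model, array weights, dim-gene filter, scaling, probe sets, replicate block and arrays. Promoter sequences came from RefSeq (GRCh38.p14). Figures were drawn with matplotlib 3.10.9.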

Additional observations from a re-analysis of the deposited data

Results flagged for a closer look

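For 9 genes that changed in the pooled contrast, the test of sgRNA-A minus sgRNA-B also passed (limma, Benjamini-Hochberg over all genes), so the pooled value is a mean of unequal parts; with 1 array left out, 6 to 13 genes met both tests. The difference was 1.5488 log2 units for MB (adjusted p = 2.25e-05), 0.82 for IGFBP4 (0.000209), 0.4749 for HMOX1 (0.0016) and 0.3229 for LAMB3 (0.0128), all higher in the sgRNA-A clone. It was -1.1747 for FBXO2 (8.35e-05), -0.775 for PCDH19 (0.00122), -0.647 for CAVIN2 (0.00102), -0.5507 for DHRS3 (0.0413) and -0.3128 for PHGDH (0.0413), all higher in the sgRNA-B clone. CAVIN2, a caveolar coat protein, read 8.26, 8.24 and 8.11 in control, no more than 8.52 with sgRNA-A and 9.19, 9.03 and 9.14 with sgRNA-B, and DHRS3 read 6.37, 6.42 and 6.28 in control, 6.71, 6.74 and 6.88 with sgRNA-A and 7.42, 7.21 and 7.34 with sgRNA-B, so in both genes every activated array lay above the controls and the clones lay at different levels. PHGDH, the first enzyme of serine synthesis, read 9.91, 9.75 and 9.87 in control, 9.96, 10.04 and 10.06 with sgRNA-A and 10.33, 10.39 and 10.27 with sgRNA-B. LAMB3 read 10.63, 10.57 and 10.67 in control, 10.52, 10.54 and 10.43 with sgRNA-A and 10.17, 10.13 and 10.22 with sgRNA-B. Whether these differences follow the guide or the clone cannot be told apart.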

How the results depend on the processing

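The count of 855 changed genes stayed within 1.5 times under every setting tried other than the removal of control replicate 1 or 3. With the replicate number as a block it was 798 (386 higher, 412 lower), and of the counts given here the block moved by over 1.5 times only that of genes that both changed and differed between clones, from 9 to 14. It was 678 without the variance trend and 654 with the activated arrays as 1 group, of which 653 were among the 855. Leaving out 1 array at a time gave 405 to 767 changed genes, 203 to 370 higher, 202 to 397 lower and 394 to 731 with separate arrays; the lowest were without control replicate 1 (405) and control replicate 3 (496). Separate arrays were found for 2314 to 3608 genes in those fits, which hold fewer arrays, for 493 with a margin of 0.1 log2 units, and for 4250 with the sgRNA-A arrays alone and 4833 with the sgRNA-B arrays alone. Genes that differed between clones numbered 6 to 30 with 1 array left out (6 without sgRNA-B replicate 1), of which 6 to 13 also changed. They numbered 39 without the dimmest 50% of genes, of which 19 also changed; without the dimmest 30%, 14 did. The cause was not tested. Of the 156 changed genes with a named value, 86 passed in each of the 19 alternatives in which they had a value, 70 lost the call in at least 1, and 0 reversed; 154 had a value without the dimmest 30% and 150 without the dimmest 50%. The sgRNA-A replicate 3 array had the lowest weight, 0.6034. Dim genes limit the comparison: 10142 genes lay at or below the silent level.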

Other observations

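Changed genes were spread over the genome. Chromosome Y and genes without a chromosome were left out of the medians and runs given here. The median log2 fold change of a chromosome's genes lay between -0.009 (chromosome 9) and 0.013 (chromosome 19). Of 1543 genes on chromosome 19, 37 rose and 15 fell (3.37% changed). Of 542 on chromosome 13, 2 rose and 12 fell (2.58% changed). Over all genes 3.57% changed, and the split by direction was not tested. Changed genes that neighbour each other and moved the same way formed 21 runs, 46 genes in all. How many runs would form if changed genes lay at random was not computed, so the count does not show clustering. Membership of the core is not given for these runs. The longest run, on chromosome 11, held DNAJC4 (adjusted p = 0.0365, limma), VEGFB (0.0131), FKBP2 (0.00372) and PLCB3 (0.0493). The other runs included S100A2, S100A16 and S100A14, the pair CEACAM5 and CEACAM6, and the pair BMP4 and CDKN3.

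Over all genes 1.77% rose and 1.8% fell. Counted by family, 3 of 562 zinc finger genes rose and 3 fell, 3 of 408 solute carriers rose and 12 fell, and 4 of 69 histone genes rose with 0 falls. Of 16 aminoacyl-tRNA synthetases 2 rose, and of 84 mitochondrial ribosomal protein genes 1 rose. Against 3.57% of all genes, protein-coding genes changed in 4.49% of 17749 cases, and long non-coding RNAs in 1.01% of 3564. Of 1122 microRNA genes on the array, 1 rose and 5 fell.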
